A study of Mus musculus with 6 samples.

Results

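The 82 genes described here encode the ligands, receptors and intracellular transducers of the WNT, BMP, TGF-beta and Notch pathways, and they were looked up in lists of AGO2-bound clusters from newborn mouse brain. They were chosen by gene symbol among the 21900 protein-coding genes in the RefSeq annotation of mm10 (GRCm38.p6). The rule uses no measured value, but it was set with earlier results of these data known. They comprise 42 WNT genes (19 Wnt ligands, 12 receptors, 7 cytoplasmic proteins and 4 TCF and LEF factors), 31 BMP and TGF-beta genes (9 called Bmp, 3 TGF-beta ligands, 11 receptors and 8 Smads) and 9 Notch genes (5 ligands and 4 receptors). Clusters were measured by chimeric eCLIP, in which RNA crosslinked to AGO2 is immunoprecipitated (IP) and part of the bound miRNA is ligated to its target, so that some reads carry a miRNA and a stretch of its target together. The 3 IP libraries came from whole brain of C57Bl/6J pups at postnatal day 0 (P0), with 1 library for WT and a pair for *Mov10* Deletion (replicates 1 and 2, written DEL1 and DEL2), and each had a size-matched input that enters here through the ratios the authors calculated. The study describes the DEL libraries as separate brains. *Mov10* encodes an RNA helicase that associates with AGO2. *Mov10* Deletion pups came from a cross of a conditional knockout, in which *Emx1*-Cre removes floxed *Mov10* exons in excitatory neurons of neocortex and hippocampus, with a heterozygous *Mov10* mutant. The assay used the whole brain, so cells in which this Cre is not active are part of every library. The comparison addresses which of these mRNAs AGO2 occupied in WT and in *Mov10* Deletion brain.

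In WNT signalling, secreted Wnt proteins bind Frizzled (Fzd) receptors and their *Lrp5* or *Lrp6* co-receptors, Dishevelled (Dvl) proteins then stop the *Apc* and Axin complex from marking beta-catenin (*Ctnnb1*) for destruction, and beta-catenin acts with TCF and LEF factors on transcription. BMPs, activins and TGF-betas bind pairs of type I and type II serine/threonine kinase receptors that phosphorylate Smad proteins, which enter the nucleus with *Smad4*. Notch receptors are cut when bound by a Delta-like (Dll) or Jagged (Jag) ligand on the neighbouring cell, and the released domain switches on target genes. In the developing brain these pathways pattern the neural tube, hold progenitors in division and time their differentiation. AGO2 carries a miRNA to its target mRNA, where pairing through the miRNA seed, its nucleotides 2 to 8, leads to repression.

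A cluster was called enriched where its deposited log2 ratio of IP to input and its −log10 p both reached 3. The WT library held 7582 enriched clusters among 359172, DEL1 held 31892 among 616014 and DEL2 held 19112 among 616005. The DEL libraries list nearly the same coordinates (2600 of the 2601 clusters inside these genes), so their positions are not independent, and WT was called with other boundaries. Total read depth is unknown, and the whole reads behind each cluster were inferred from its ratio and p-value. The inference takes an input without reads as 1 read, so 1 input read here means 1 or none. Over 1 input read, a cluster needed at least 16 IP reads to be enriched in WT, 9 in DEL1 and 8 in DEL2, which correspond to a log2 of 3.76, 3.97 and 4.25. *Mov10* itself had 11 clusters in WT, of which 1 was enriched, and 9 in each DEL library, of which 0 were enriched. In whole brain, fewer cells of a type and less RNA per cell cannot be told apart. Clusters were listed in 6 of 6 neuron markers (647 clusters in WT, 1107 and 1108 in *Mov10* Deletion) and 6 of 6 markers of glia and their progenitors (119, 199 and 199). For tissue outside the brain, 1 of 3 liver markers (*Alb*, with 1, 3 and 3 clusters), 2 of 3 skeletal muscle markers (2, 4 and 4 clusters) and 3 of 3 red blood cell markers (6 in each library) had any. Of the 21468 protein-coding genes with a known strand, 14363 had a cluster in some library. Red blood cell markers held 3, 2 and 1 enriched clusters, and their part in the results below was not tested. No test compares the genotypes, because WT is 1 library, and the intervals below are exact Clopper-Pearson 95% intervals that cover counting error alone.

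Of the miRNAs assigned to these genes, 9 were among the 5 most frequent of a library. Mature sequences are shown for those of the 9 that had one. Those of miR-103-3p, let-7e-5p and let-7i-5p, which are also named below, are added. miR-124-3p, the miRNA with most assignments, is not among those shown. The sequences are those of RefSeq on GRCm38.p6, written 5′ to 3′ with the seed in capitals. A sequence was found for 14 of 17 miRNAs looked up, with 6 different seeds. miR-124-3p, miR-466i-5p and miR-598-3p are named without a sequence.
miR-9-5p: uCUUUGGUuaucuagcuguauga
miR-125b-5p: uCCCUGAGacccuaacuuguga
miR-16-5p: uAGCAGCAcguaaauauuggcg
miR-103-3p: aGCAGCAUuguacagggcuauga
miR-181a-5p: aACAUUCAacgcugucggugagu
let-7a-5p: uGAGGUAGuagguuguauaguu
let-7b-5p: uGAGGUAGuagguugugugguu
let-7c-5p: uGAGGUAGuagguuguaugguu
let-7e-5p: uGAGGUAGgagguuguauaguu
let-7i-5p: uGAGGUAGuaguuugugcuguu
The let-7 miRNAs share 1 seed and differ downstream of it. The seeds of miR-16-5p and miR-103-3p overlap by 6 nucleotides when shifted by 1 position.

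AGO2 clusters lay in 74 of the 82 genes, and in 14363 of the 21468 protein-coding genes with a known strand. The 8 without a cluster in any library were *Wnt1*, *Wnt2*, *Wnt3a*, *Wnt8a*, *Wnt10a*, *Wnt10b*, *Bmp10* and *Bmp15*, all ligands, with a median gene length of 7080 nt. The 74 genes with a cluster had a median length of 40100 nt, against 27000 nt for all 14363 protein-coding genes with a cluster, and a longer gene offers more room for clusters. An enriched cluster was present in at least 1 library in 52 genes and in none in 22 (29.7%, interval 19.7% to 41.5%), where 46.8% of all genes with a cluster had none. Per cluster the difference was smaller, as 2.74% of clusters in these genes were enriched in WT (interval 1.94% to 3.76%), 7.0% in DEL1 (6.05% to 8.05%) and 3.34% in DEL2 (2.69% to 4.11%). The values for clusters in all protein-coding genes were 2.15%, 5.19% and 3.09%.

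In WT, 19 of the 71 genes with a WT cluster held an enriched one (26.8%, interval 16.9% to 38.6%), where 20.5% of all genes did. In DEL1 it was 49 of 69 (71.0%, interval 58.8% to 81.3%) against 45.4% of all genes, and in DEL2 it was 31 of 69 (44.9%, interval 32.9% to 57.4%) against 35.7%. Both DEL libraries held an enriched cluster in 30 genes (43.5%, interval 31.6% to 56.0%), where 27.0% of all genes qualified. The interval thus lay above the value for all genes in DEL1 and in both DEL libraries together, and included it in WT and in DEL2. Across genotypes, 15 of the 74 genes (20.3%, interval 11.8% to 31.2%) were enriched in WT and in both DEL libraries, against 14.5% of all genes. These were *Apc*, *Axin2*, *Dvl2*, *Dvl3* and *Fzd3* of the WNT pathway, *Jag2* of the Notch pathway, and *Bmp7*, *Acvr1b*, *Acvr2a*, *Acvr2b*, *Tgfbr1*, *Tgfbr2*, *Tgfbr3*, *Smad4* and *Smad5* of the BMP and TGF-beta pathways. Another 15 genes (20.3%, with the same interval) were enriched in both DEL libraries and not in WT, against 11.5% of all genes. They were *Wnt7b*, *Lrp6*, *Ctnnb1*, *Tcf7l1*, *Tcf7l2*, *Bmp6*, *Acvr1*, *Bmpr2*, *Smad2*, *Smad6*, *Smad7*, *Tgfb2*, *Dll1*, *Notch2* and *Notch3*. The reverse pattern, enrichment in WT and in neither DEL library, held for 2 genes (2.7%, interval 0.329% to 9.42%), *Lrp5* and *Smad1*, against 1.01% of all genes.

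The split between genotypes moved with the limit on p. At a −log10 p of at least 5, 12 genes were enriched in WT, 11 in both DEL libraries instead of 30, and 2 in both and not in WT instead of 15, *Ctnnb1* and *Tcf7l2*. With the log2 limit at 2 or 4 instead, the genes enriched in both and not in WT numbered 11 and 12. The median inferred IP reads of enriched clusters in these genes was 33 in WT, 14 in DEL1 and 11 in DEL2, and 22 of 37, 101 of 182 and 43 of 87 of these clusters stood over a single input read. Adjoining clusters can be pieces of 1 site. Joining enriched clusters of a gene that lay at most 5 nt apart, a step added after the values were seen, left 30 sites for the 37 clusters in WT, 116 for the 182 in DEL1 and 62 for the 87 in DEL2, so counts of clusters per gene below are not counts of sites.

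**Figure D1:**
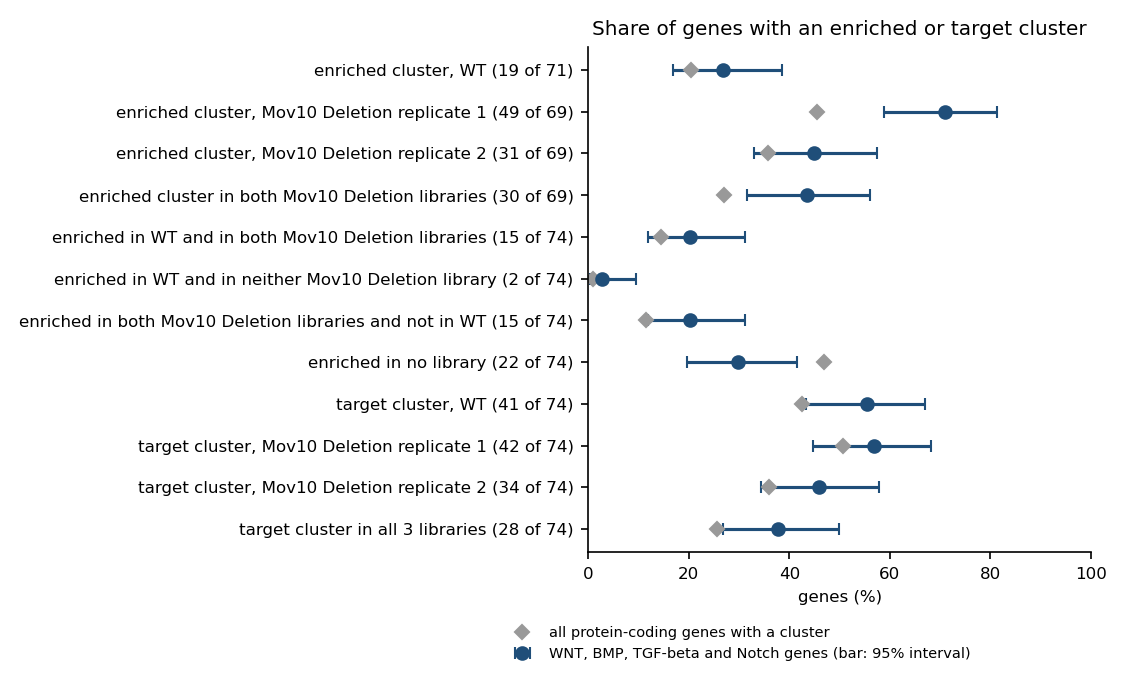
Share of genes (%) with an enriched or a target cluster, for the WNT, BMP, TGF-beta and Notch genes (circles, bars are exact 95% intervals of counting error) and for all protein-coding genes with a cluster (diamonds), each row naming the library or combination and the number of genes. The circle lies farthest to the right of its diamond in DEL1, at 71.0% against 45.4%.

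Of all genes with a cluster, 20.5% were enriched in WT, 45.4% in DEL1 and 35.7% in DEL2, and counts by role below stand beside these shares. The counts take no account of gene length. None of the 19 Wnt genes, which encode the secreted ligands, held an enriched cluster in WT, although 13 had a cluster in some library. DEL1 held enriched clusters in 6 of them, 5 in *Wnt4* (3 sites once joined), 5 in *Wnt7a* (2 sites), 3 in *Wnt7b* (2 sites), 2 in *Wnt5b* (1 site) and 1 each in *Wnt11* and *Wnt9a*, and DEL2 held 2, both in *Wnt7b* (1 site). *Wnt7a* and *Wnt7b* are made by neural cells and act on brain vessels. Target clusters were as sparse, with 2 assignments on Wnt ligands in each library. Of the 12 receptor genes, *Fzd3*, which is required for axon tract formation, had the highest log2 of the Frizzled genes in *Mov10* Deletion. Its cluster at chr14:65252955-65253050 on the minus strand, 60514 nt before the end of the gene, had a log2 of 4.56 in WT (28 IP reads over 1 input read), and the overlapping cluster had 6.05 in DEL1 (38 reads over 1) and 5.16 in DEL2 (15 reads over 1). All 3 libraries placed AGO2 at this site. WT had the lowest deposited ratio of them, but each ratio stands over 1 input read or none, and the order was not tested. *Fzd8* had 1 enriched cluster in WT, 7 in DEL1 and 0 in DEL2, and *Fzd2* had 0, 8 and 0, or 4 sites for *Fzd8* and 2 for *Fzd2* in DEL1 once joined, so that neither gene was enriched in both DEL libraries. Of the co-receptors, *Lrp5* had 1 enriched cluster in WT (log2 3.76, 16 IP reads over 1) and 0 in *Mov10* Deletion, where the overlapping clusters had a log2 of 3.12 and 4.06 on 5 and 7 reads. Those values are above the fold limit and miss the p limit at that number of reads. *Lrp6* had 0, 2 and 4 enriched clusters.

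Among the 7 cytoplasmic WNT proteins, 5 genes were enriched in WT, 7 in DEL1 and 5 in DEL2, where 20.5%, 45.4% and 35.7% of all genes were. *Apc* encodes the scaffold of the beta-catenin destruction complex. Its enriched WT cluster, 72103 nt before the gene's end, rested on the most IP reads of all enriched clusters in these genes, with a log2 of 4.18 in WT (215 reads over 10), 3.40 in DEL1 (115 over 19) and 3.29 in DEL2 (37 over 9). WT was the highest of the 3 there, and the DEL libraries were close to each other. *Ctnnb1*, which encodes beta-catenin, had 0 enriched clusters in WT, 6 in DEL1 and 4 in DEL2, 1 of them at the same position in both (log2 4.26 and 3.58, with no WT cluster there). *Dvl2* had 2, 3 and 3 enriched clusters that lay between 225 and 353 nt from its end, where log2 lay between 3.08 and 4.19 in every library. *Axin1* had 2, 3 and 0, and its cluster at chr17:26195436-26195596, 215 nt before the gene's end, reached 5.34 in WT (48 reads over 1), 6.23 in DEL1 (43 over 1) and 3.84 in DEL2 (6 over 1, under the p limit). *Axin2*, a target gene of the pathway as well as a member of it, had 1, 4 and 3, and its WT cluster overlapped none of the DEL clusters. *Dvl1* had 0, 3 and 0 and *Dvl3* 1, 1 and 2. The TCF and LEF factors, which bind DNA with beta-catenin, had no enriched cluster in WT. In *Mov10* Deletion, *Tcf7l1* had 5 and 4 and *Tcf7l2*, a gene with 124 clusters in WT and 192 in each DEL library, had 7 and 1.

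**Figure D2:**
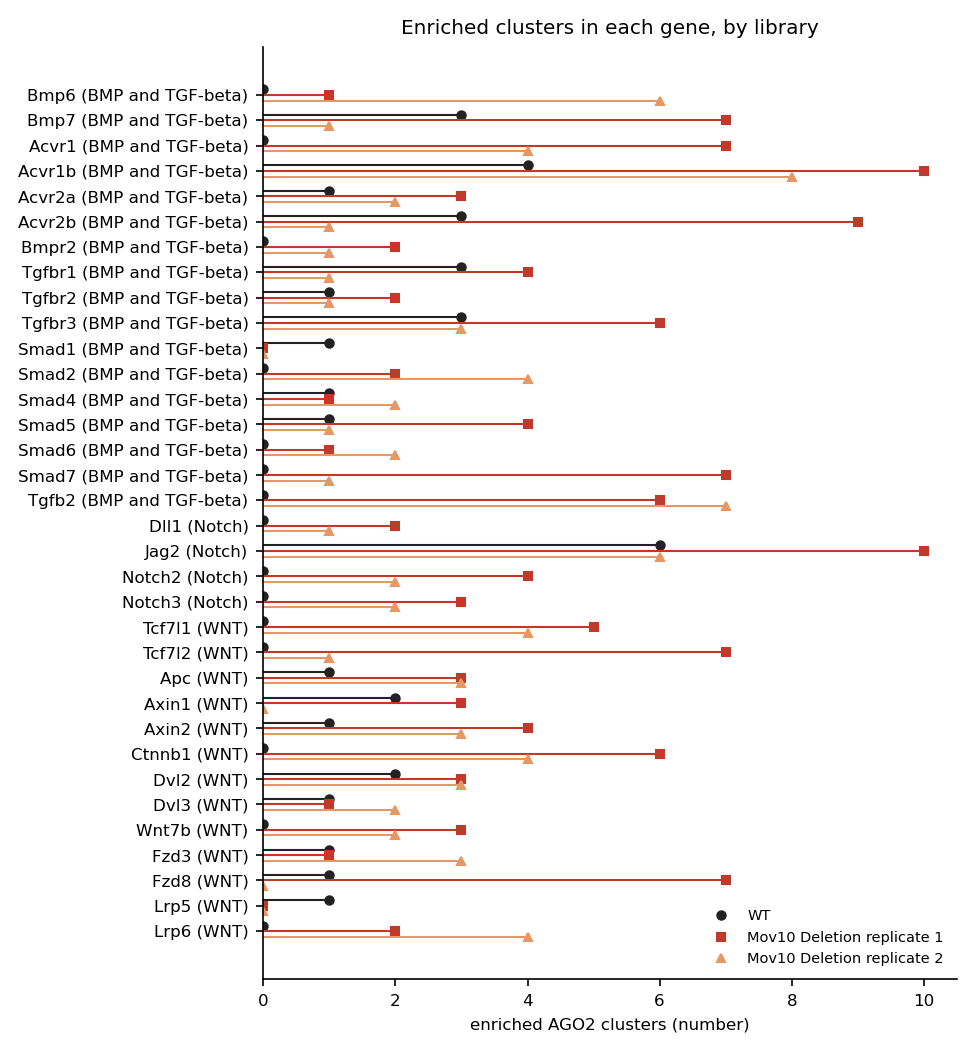
Number of enriched AGO2 clusters (x axis) in each of the 34 genes enriched in WT or in both DEL libraries, with 1 line and marker per library and the pathway in brackets. *Jag2* and *Acvr1b* lead with 6 and 4 in WT and 10 each in DEL1, while 15 genes sit at 0 in WT.

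The receptors of BMPs, activins and TGF-betas were by number the role with most enriched genes, 6 of 11 in WT, 10 in DEL1 and 8 in DEL2. Of all genes with a cluster, 20.5%, 45.4% and 35.7% were enriched, and gene length was not accounted for. The 6 receptor genes enriched in WT were enriched in both DEL libraries too. So were 2084 of the 2690 genes enriched in WT among all protein-coding genes. The count is by gene and not by site. In *Tgfbr2* the enriched cluster lay 2347 nt before the gene's end in WT and 31584 nt before it in DEL2. *Acvr1b*, a type I activin receptor, had 4, 10 and 8 enriched clusters. Its WT clusters at chr15:101211345-101211490 and chr15:101211491-101211528 had a log2 of 3.50 (107 reads over 8) and 3.60 (43 over 3), and both overlapped 1 DEL cluster with 3.18 in DEL1 (73 over 14) and 4.33 in DEL2 (59 over 7). The WT values fell between the DEL libraries there. *Acvr2b*, a type II activin receptor, had 3, 9 and 1, and its WT clusters, with a log2 of 4.34, 4.51 and 5.48 between 7907 and 8349 nt before the gene's end, overlapped no DEL cluster at all. A further position in *Acvr2b*, chr9:119434824-119434907, was enriched in both DEL libraries (3.61 on 84 reads and 3.54 on 39 reads), while the overlapping WT cluster had 2.66 with a −log10 p of 19.7 and missed the fold limit. *Acvr2a* had 1, 3 and 2 and showed nearly equal log2 at its WT cluster, 3.08, 3.26 and 3.37. *Tgfbr1*, the type I TGF-beta receptor, had 3, 4 and 1, *Tgfbr2*, its type II partner, 1, 2 and 1, and *Tgfbr3*, the co-receptor betaglycan, 3, 6 and 3. Near the end of *Tgfbr3* (326 nt) log2 was 5.34 in WT (48 reads over 1), 3.50 and 5.06 in the DEL libraries. *Acvr1* (0, 7 and 4) and *Bmpr2* (0, 2 and 1) were enriched in both DEL libraries and not in WT. *Bmpr1a* and *Bmpr1b* each had 1 enriched cluster, in DEL1, and *Acvr1c* had none.

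Of the ligands in this pathway, *Bmp7*, which acts in cortical and eye development, was the gene with enriched WT clusters. Its 3 adjoining WT clusters, chr2:172869077-172869223, chr2:172869224-172869296 and chr2:172869297-172869454, had a log2 of 3.83, 4.73 and 3.33 on 118, 63 and 107 IP reads. The overlapping DEL clusters had 2.7, 2.80 and 2.98 in DEL1, each under the fold limit, and 2.48, 3.25 and 3.25 in DEL2. WT was the highest of the 3 libraries at each of these positions, which were chosen by their WT value. The 7 enriched *Bmp7* clusters of DEL1 lay elsewhere in the gene. *Bmp6* had 0, 1 and 6 enriched clusters (0, 1 and 2 sites once joined) and *Tgfb2* had 0, 6 and 7 (0, 3 and 4 sites). Among the Smads, *Smad1* and *Smad5*, which transduce BMP signals, each had 1 enriched WT cluster. At the *Smad1* cluster log2 was 3.08 in WT (20 reads over 2) and 3.80 and 3.84 in *Mov10* Deletion, on 8 and 6 reads and under the p limit. At the *Smad5* cluster it was 3.38, 3.02 and 2.06. *Smad4*, the partner shared by all pathways of this family, counted as enriched in all 3 libraries (1, 1 and 2 clusters) at different positions, since its WT cluster (log2 3.93, 18 reads over 1) overlapped DEL clusters with a log2 of -0.20 and 2.67. The inhibitory *Smad6* and *Smad7* and the TGF-beta transducer *Smad2* were enriched in both DEL libraries (1 and 2, 7 and 1, and 2 and 4 clusters) and not in WT, and *Smad3* had 0, 7 and 0.

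In the Notch pathway, *Jag2* was the gene with enriched WT clusters, 6 in WT, 10 in DEL1 and 6 in DEL2, all 6 of WT within the last 1000 nt of the gene on chromosome 12. The WT clusters from 70 to 204 nt before the end had a log2 of 4.80, 5.22 and 4.66 (33, 44 and 60 IP reads) and overlapped 1 DEL cluster, chr12:112907920-112908088, with 3.67 in DEL1 (44 reads over 6) and 4.95 in DEL2 (26 over 2). A pair of adjoining positions 725 and 774 nt before the end was enriched in both DEL libraries (4.38 and 4.71, then 5.10 and 3.73), while the WT cluster there had 2.46. *Jag2* encodes a ligand, and its relative *Jag1* had 0, 0 and 2 enriched clusters. *Dll1*, the Delta-like ligand of neural progenitors, had 0, 2 and 1, of which 1 at the same position in both DEL libraries, chr17:15367605-15367714. Its log2 was 3.38 in DEL1 (12 reads over 2) and 4.42 in DEL2 (9 over 1), against 2.93 in WT (9 over 1, under both limits). WT and DEL2 thus rest on the same inferred reads, and their ratios differ by the constant of each library. None of the 4 Notch receptors was enriched in WT, where 20.5% of all genes with a cluster were. *Notch1* had 3 and 0 enriched clusters in the DEL libraries, *Notch2* 4 and 2, *Notch3* 3 and 2 and *Notch4* 2 and 0. The shared positions in *Notch3* were adjoining clusters of 4 and 20 nt with identical values in each library, 9 reads in DEL1 and 13 in DEL2, and so amount to 1 site.

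The 37 enriched WT clusters in these genes were then followed into the DEL lists. Of them, 29 (78.4%, interval 61.8% to 90.2%) overlapped a DEL cluster, 20 (54.1%, 36.9% to 70.5%) an enriched one of DEL1, 14 (37.8%, 22.5% to 55.2%) an enriched one of DEL2 and 12 (32.4%, 18.0% to 49.8%) enriched ones of both. For enriched WT clusters in all protein-coding genes the shares were 89.2%, 55.7%, 43.9% and 34.6%, each inside the interval of these genes. Among the 29 that overlapped, log2 in WT was above both DEL libraries in 12, between them in 12 and below both in 5. These clusters were chosen for a high log2 in WT, and the highest overlapping DEL cluster was taken. Both choices shape this tally, so no direction is read from it. The 8 WT clusters without a counterpart lay in 5 genes, 3 in *Acvr2b*, 2 in *Jag2* and 1 each in *Acvr1b*, *Axin2* and *Dvl3*. All 8 stood over 1 input read, with 16 to 53 IP reads. From the other side, 21 clusters in 13 genes were themselves enriched in both DEL libraries, in *Acvr1b* (4), *Dvl2* (3), *Jag2* (3), *Notch3* (2) and 1 each in *Acvr2a*, *Acvr2b*, *Apc*, *Axin2*, *Ctnnb1*, *Dll1*, *Fzd3*, *Tgfbr1* and *Tgfbr3*. The same count over all protein-coding genes is not given here, so this number is not read as a trait of these genes.

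**Figure D3:**
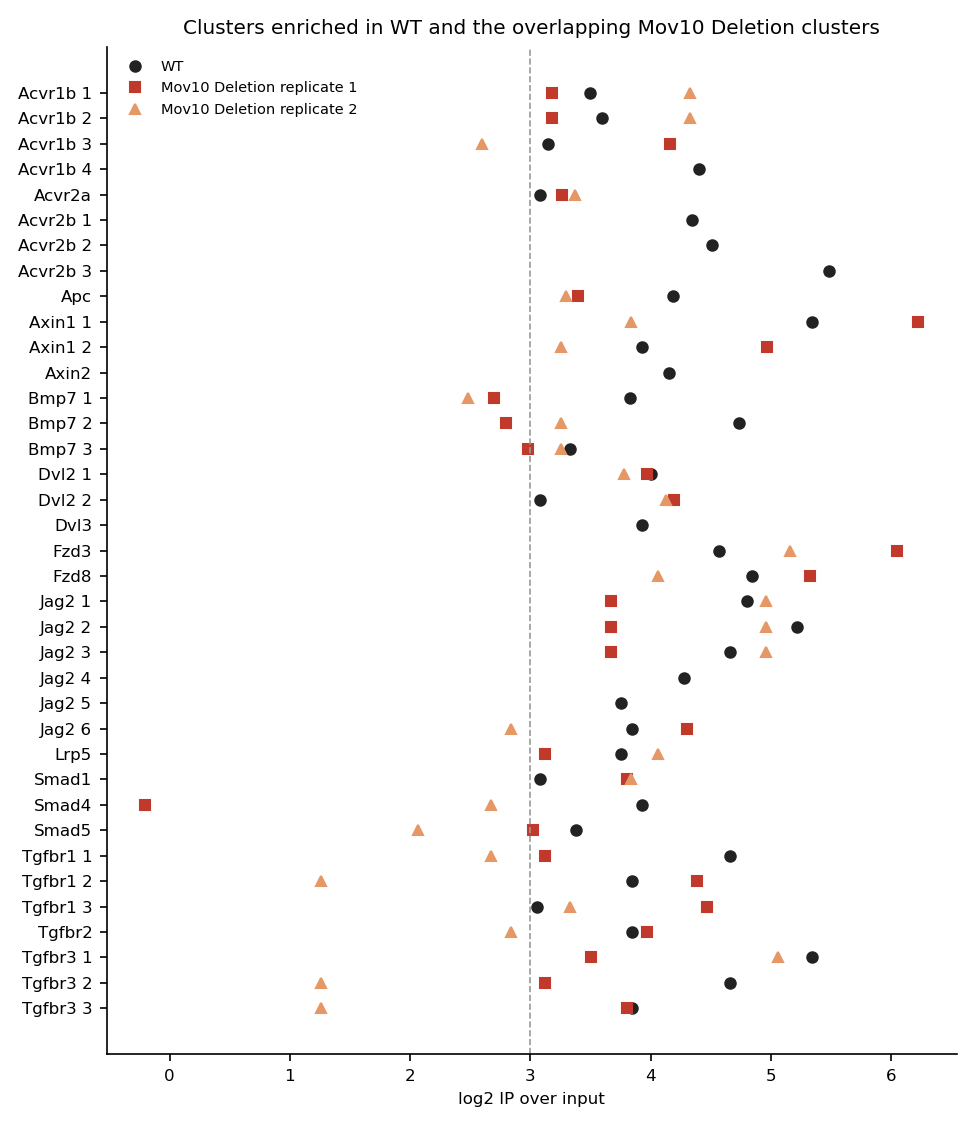
log2 IP over input (x axis) of the 37 clusters enriched in WT (circles), 1 row each and numbered along the gene, with the highest overlapping cluster of DEL1 (squares) and DEL2 (triangles). The dashed line is the limit of 3, and the 8 rows with a circle alone had no DEL cluster. Rows were chosen by their WT value, so no circle lies left of the line.

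Enriched clusters were frequent at the ends of these genes. In WT, 15 of 37 (40.5%, interval 24.8% to 57.9%) lay within the last 1000 nt, 47 of 182 (25.8%, 19.6% to 32.8%) in DEL1 and 19 of 87 (21.8%, 13.7% to 32.0%) in DEL2. In all protein-coding genes the shares were 19.3%, 10.8% and 10.6%, below each interval. Clusters of any enrichment lay in the last 1000 nt more often in these genes too, at 7.27%, 5.61% and 5.61% against 4.44%, 3.66% and 3.66%. Joined into sites, 12 of 30 (40%, 22.7% to 59.4%), 25 of 116 (21.6%, 14.5% to 30.1%) and 14 of 62 (22.6%, 12.9% to 35.0%) lay there, against 21.2%, 11.9% and 11.7% of sites in all protein-coding genes. Clusters of 1 gene are not independent (6 of the WT ones are in *Jag2*), and gene ends are those of RefSeq, so whether a cluster lay in a 3′ UTR, an exon or an intron was not assigned.

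Chimeric reads placed 151 miRNA assignments on these genes in WT, 177 in DEL1 and 72 in DEL2, where a cluster with several miRNAs counts once for each. Across the 74 genes with a cluster, 41 had a target cluster in WT (55.4%, interval 43.4% to 67.0%) against 42.6% of all genes, 42 in DEL1 (56.8%, 44.7% to 68.2%) against 50.7%, and 34 in DEL2 (45.9%, 34.3% to 57.9%) against 35.9%. In 28 genes all 3 libraries had one (37.8%, 26.8% to 49.9%), against 25.6% of all genes. The order of the libraries matches the number of assignments each holds in all protein-coding genes, 20844, 29129 and 12689, so counts are not read across libraries. Of the 50 genes with a target cluster in some library, 45 also had an enriched AGO2 cluster, and 5 did not. Of all 74 genes with a cluster, 52 had an enriched one, and the same overlap over all protein-coding genes is not given here. At single positions, 18.5% of assignments in WT, 19.2% in DEL1 and 20.8% in DEL2 overlapped an enriched AGO2 cluster of the same library. Of all assignments, 20.1%, 14.8% and 13.6% did.

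*Apc* led in every library with 24, 19 and 9 assignments, followed in WT by *Ctnnb1* (12, 10 and 6), *Acvr1b* (10, 7 and 2), *Tgfbr1* (9, 6 and 5) and *Acvr2a* (8, 12 and 1). *Apc* and *Ctnnb1*, whose proteins bind each other, thus held 36 of the 151 assignments in WT. *Bmpr2*, the type II BMP receptor, had 5, 11 and 2, *Smad1* had 5, 9 and 3, *Tcf7l2* had 5, 8 and 3 and *Lrp6* had 7, 3 and 4. The cytoplasmic WNT proteins and the BMP and TGF-beta receptors together carried 92 of the WT assignments, 44 and 48, and the Wnt ligands 2. The genes with target clusters in all 3 libraries were *Apc*, *Axin1*, *Axin2*, *Ctnnb1*, *Dvl2*, *Dvl3*, *Fzd3*, *Lrp6*, *Lef1*, *Tcf7l2*, *Bmp7*, *Tgfb2*, *Acvr1*, *Acvr1b*, *Acvr2a*, *Acvr2b*, *Bmpr2*, *Tgfbr1*, *Tgfbr3*, *Smad1*, *Smad2*, *Smad3*, *Smad4*, *Smad5*, *Dll1*, *Jag2*, *Notch2* and *Notch3*.

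**Figure D4:**
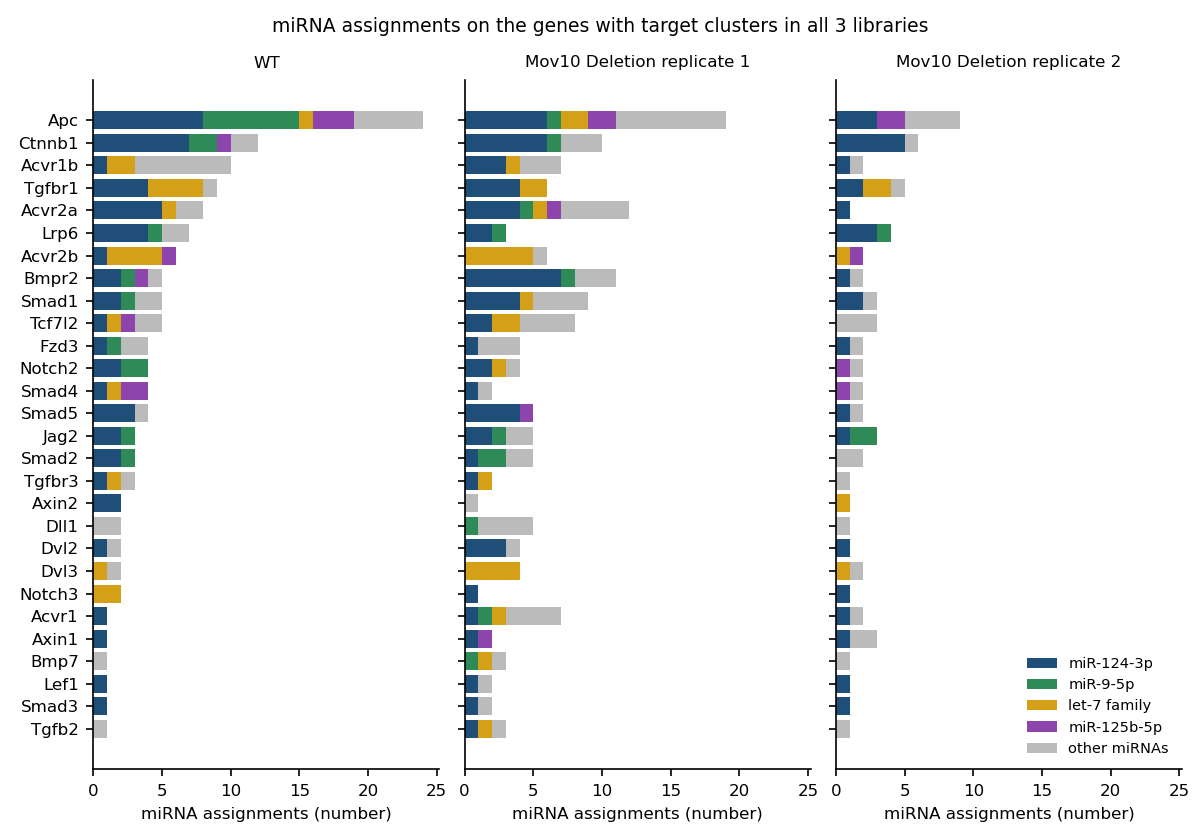
Number of miRNA assignments (x axis) on the 28 genes with target clusters in all 3 libraries, 1 panel per library, with bars divided by miRNA. miR-124-3p (dark blue) forms the largest block in *Apc* and *Ctnnb1* in WT, at 8 of 24 and 7 of 12, and let-7 (yellow) leads in *Acvr2b* in WT and in DEL1.

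miR-124-3p, the neuronal miRNA, took 61 of the 151 assignments in WT (40.4%, interval 32.5% to 48.7%), 64 of 177 in DEL1 (36.2%, 29.1% to 43.7%) and 28 of 72 in DEL2 (38.9%, 27.6% to 51.1%), where its share of all assignments was 43.2%, 35.3% and 38.0%. It was assigned to 32 of the genes in at least 1 library and to 16 in all 3. miR-9-5p, a miRNA of neural progenitors and neurons, took 19 (12.6%, 7.75% to 19.0%), 12 (6.78%, 3.55% to 11.5%) and 3 (4.17%, 0.868% to 11.7%), against 9.19%, 6.72% and 6.83% of all assignments. Its WT count included 7 on *Apc*, where the clusters at chr18:34312686-34312724 and chr18:34312725-34312759 adjoin, so that these are not 7 sites. The let-7 family, whose members mark differentiation, took 20 (13.2%, 8.28% to 19.7%), 26 (14.7%, 9.83% to 20.8%) and 6 (8.33%, 3.12% to 17.3%), against 9.43%, 9.65% and 8.35%. miR-125b-5p took 10, 8 and 7 (6.62%, 4.52% and 9.72%, against 6.12%, 5.59% and 5.46%), and miR-466i-5p 3, 6 and 4 (1.99%, 3.39% and 5.56%, against 4.11%, 5.52% and 5.9%). miR-16-5p took 2, 7 and 0, with a DEL1 interval of 1.6% to 7.98% against 1.19%, and miR-181a-5p 1, 0 and 3. Of these 21 shares, 2 had an interval that did not include the share of all assignments, those of let-7 and miR-16-5p in DEL1. The intervals treat assignments as independent, but let-7 members on the same cluster count separately. The 26 let-7 assignments of DEL1 fell on 16 genes. In *Acvr2b*, let-7a-5p, let-7b-5p, let-7c-5p, let-7e-5p and let-7i-5p were all assigned to the same DEL1 cluster.

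Target clusters listed for the same miRNA at an overlapping position in all 3 libraries numbered 25 in 17 genes, 19 of them for miR-124-3p. The same count over all protein-coding genes is not given here. These target clusters are counted by their WT clusters, and in *Jag2* and *Lrp6* a pair of them overlaps the same DEL cluster. The score of these clusters, which the authors deposited without a definition in the sources used here, had a median of 14.6 in WT, 7.88 in DEL1 and 4.54 in DEL2. It was highest in WT for 16, in DEL1 for 8 and in DEL2 for 1, and DEL1 exceeded DEL2 in 20 of 25, so the libraries of the same genotype were far apart. DEL1 holds more assignments in total than WT, and DEL2 fewer. Whether read depth bears on the score was not tested. The highest scores were those of *Apc* 72129 nt before the gene's end, 104 in WT, 58.6 in DEL1 and 21.7 in DEL2, and of *Ctnnb1* at chr9:120945131-120945254, 15253 nt before the end, 97.8, 39.8 and 22.8. The *Fzd3* cluster at chr14:65252948-65253052, on the enriched AGO2 site described above, had 32.6, 34.0 and 7.72, and *Smad1* at chr8:79367279-79367382 had 27.4, 28.0 and 7.0. In both genes WT and DEL1 were nearly equal and DEL2 stood apart. Each of the 6 highest WT scores lay more than 10000 nt before the gene's end, and so did 9 of the 25.

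Nearer the end, within 1000 nt, lay 9 of the 25, in *Axin1*, *Ctnnb1*, *Dvl2*, *Dll1*, *Jag2* and *Tgfbr1*. *Axin1* at chr17:26195514-26195604 scored 23.2, 4.64 and 14.3, the second *Ctnnb1* cluster, 56 nt from the end, 17.9, 14.9 and 4.22, and *Dvl2* at chr11:70009665-70009809 13.7, 7.64 and 4.89, all for miR-124-3p. Other miRNAs accounted for 6 recurring clusters. let-7b-5p was assigned to *Acvr2b* at chr9:119434832-119434939 with 21.7, 8.81 and 8.97, on the position that was enriched for AGO2 in both DEL libraries. let-7c-5p and miR-124-3p were assigned to 1 cluster of *Tgfbr1*, chr4:47414407-47414523, with 4.91, 6.55 and 4.0 for let-7c-5p, and this position was enriched for AGO2 in all 3 libraries. miR-9-5p recurred on *Jag2* (3.63, 3.90 and 3.88) and *Lrp6* (6.01, 9.09 and 4.29), miR-103-3p on *Dll1* (9.0, 5.84 and 5.0) and miR-598-3p on *Tgfb2* (10.8, 3.53 and 4.0). In all, 7 of the 25 lay on an AGO2 cluster enriched in all 3 libraries, 7 on one enriched in none, and 1, in *Apc*, on no listed AGO2 cluster.

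**Figure D5:**
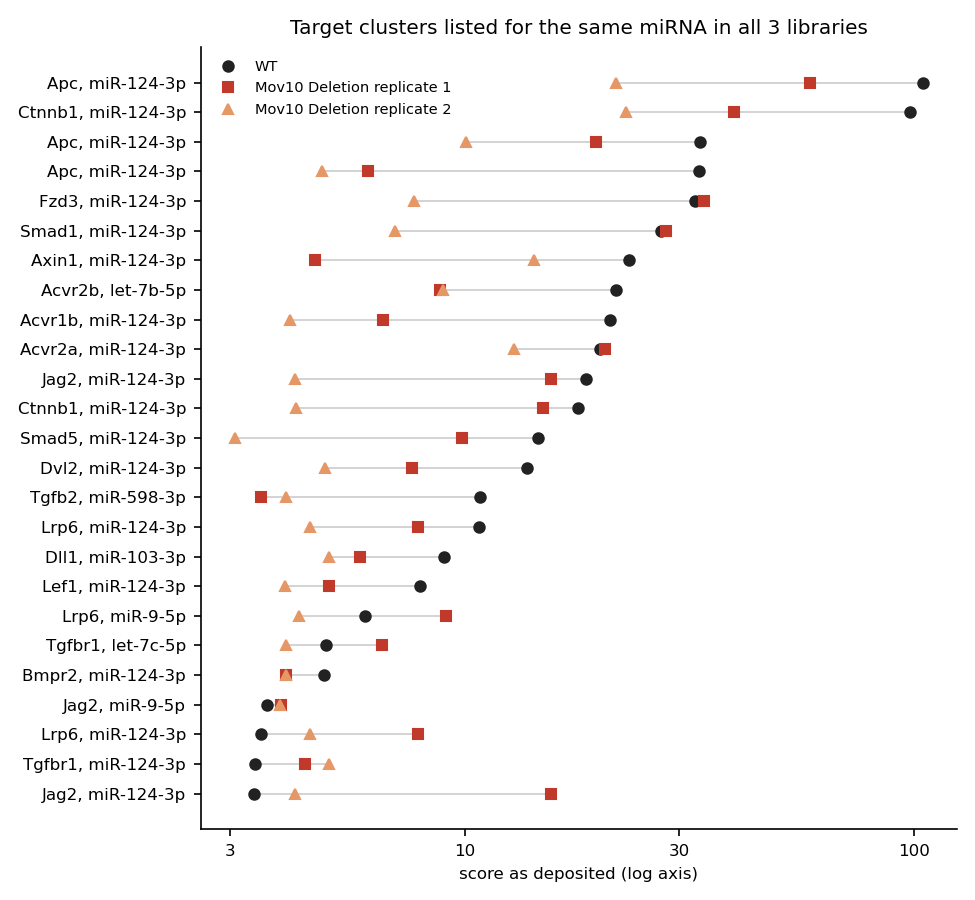
Deposited score (log axis) of the 25 target clusters listed for the same miRNA in all 3 libraries, ordered by the WT score, with circles for WT, squares for DEL1 and triangles for DEL2. WT is rightmost in 16 rows, and DEL2 lies left of DEL1 in 20.

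Seed matches were looked up in the longest annotated 3′ UTR of each gene (GENCODE vM39), as the sequence complementary to nucleotides 2 to 8 on the mRNA strand. The sequence is that of GRCm39, the search did not use the cluster positions, and longer 3′ UTRs hold more matches by chance. Of the 15 genes assigned to miR-9-5p in some library, 3 (20.0%) held its match ACCAAAG, as did 9 of the 59 other genes with a cluster (15.3%) and 15.6% of all 20940 3′ UTRs. For the let-7 match CTACCTC it was 4 of 20 (20.0%), 10 of 54 (18.5%) and 11.9%, and for the miR-125b-5p match CTCAGGG 3 of 16 (18.8%), 16 of 58 (27.6%) and 16.8%. For these 3 seeds, then, most assigned genes lacked the match in the 3′ UTR searched. The miR-181a-5p match TGAATGT was present in 1 of 3 assigned genes (33.3%), 16 of 71 others (22.5%) and 19.9% of all 3′ UTRs. For miR-16-5p, TGCTGCT (which overlaps the miR-103-3p match ATGCTGC by 6 nucleotides) was present in 6 of 7 assigned genes (85.7%), 25 of 67 others (37.3%) and 24.8% of all 3′ UTRs, with median 3′ UTR lengths of 3810, 2040 and 1470 nt.

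Other genes of these pathways, taken as lists of partners, were counted in the same way. The shares of all genes to read them against are 20.5% in WT, 45.4% in DEL1, 35.7% in DEL2 and 14.5% in all 3. Of 32 WNT partners 29 had a cluster, and 7 were enriched in WT (25% of those with a cluster there), 17 in DEL1 (58.6%), 10 in DEL2 (34.5%) and 3 in all 3 libraries (10.3%). *Bcl9*, a co-activator that binds beta-catenin, led with 4, 13 and 5 enriched clusters, while *Gsk3b*, the kinase of the destruction complex, had 1, 4 and 2 and held 12, 16 and 8 miRNA assignments. All 19 BMP and TGF-beta partners had a cluster, with 5, 8 and 7 enriched (31.2%, 42.1% and 36.8%) and 3 in all libraries (15.8%), and *Ski*, which represses Smad-driven transcription, had 5, 13 and 5 enriched clusters. The secreted antagonists *Nog*, *Chrd*, *Grem1* and *Fst* had at most 5 clusters in a library and no enriched one. Of all genes with a cluster, 46.8% had no enriched one either. *Fstl1*, on the same list, had 0, 5 and 1 enriched clusters. Of 27 Notch partners 26 had a cluster, with 9, 18 and 12 enriched (34.6%, 69.2% and 46.2%) and 7 in all 3 libraries (26.9%). *Maml3*, a Mastermind co-activator of Notch, held 35, 67 and 46 enriched clusters among 307, 513 and 513 in all. Its relatives *Maml1* (5, 6 and 2 among 14, 33 and 33) and *Maml2* (4, 14 and 13 among 226, 382 and 382) had fewer of both. These clusters were not joined into sites.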

How the data were processed

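AGO2 chimeric eCLIP clusters from P0 mouse brain were taken as deposited for 1 WT and 2 *Mov10* Deletion IP libraries, and no input libraries were analysed here. Per the methods and the submitters' processing notes, the authors took off molecular identifiers (UMI-tools 1.1.1) and adapters (cutadapt 3.2), set aside reads of repeats and rRNA, aligned the rest to mm10 (STAR 2.7.7a), removed duplicates and ran CLIPper. miRNAs were mapped to the remaining reads with Bowtie 1.2.3. The authors deposited IP over input as log2, its p-value as −log10, and for each target cluster a miRNA and a score (at least 3 in every library) that is not defined in the sources used here. Peak calling is described as done within samples, and why the *Mov10* Deletion libraries share nearly all coordinates is not given there.

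Clusters lying wholly inside a RefSeq gene body of GRCm38.p6 on its strand were counted, once for each gene. Strand came from the RefSeq promoter table (61 of the 82 genes) or GENCODE vM39 by symbol (21), and the sources agree for 15728 of 15832 genes with both. No coordinates were converted between builds, and exons were not used. Enriched clusters had log2 and −log10 p of at least 3. An input without reads was taken as 1 read. Inferred reads are whole numbers whose ratio, times a constant of the library, and exact or chi-square p give the deposited values (up to 60 input reads, −log10 p within 0.001). This fitted 100% of sampled clusters in WT and in replicate 1 and 98.3% in replicate 2, and all 306 enriched clusters of these genes. The inference and the gene assignment were tested on simulated data. Enriched clusters of a gene at most 5 nt apart were also joined into sites, which was chosen after seeing the data. Overlap means at least 1 nt on the same strand. Shares have exact Clopper-Pearson 95% intervals (scipy 1.17.1), which cover counting error only. No p-value was computed, since WT is 1 library. Named are genes enriched in WT, genes with a cluster enriched in both *Mov10* Deletion libraries, genes with target clusters in all 3 libraries, the 5 highest counts per library and the 5 most frequent miRNAs per library. Other genes were named after their values were seen, so that every one with an enriched cluster could be placed by role. The genes, partner lists and markers were chosen with earlier results of these data known.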

Additional observations from a re-analysis of the deposited data

How the results depend on the processing

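Of 86 values recomputed under another setting, 54 stayed within 1.5 times the reported count or inside the reported interval. Counting any overlap with the gene, or only clusters in 1 gene, changed no count of enriched genes beyond that. At a log2 of at least 2, 1 gene was enriched in WT alone, and enriched WT clusters overlapping enriched ones of replicates 1 and 2 numbered 39 and 29 (of 60). At a log2 of at least 4, 12 genes were enriched in WT, 18 in both *Mov10* Deletion libraries, 6 in all 3 libraries and 0 in WT alone. At a −log10 p of at least 5, the counts were 12 in WT, 28 in replicate 1, 15 in replicate 2, 11 in both, 9 in all 3, 0 in WT alone, and 2 in both and not in WT. With at least 16 inferred IP reads they were 27 in replicate 1, 12 in replicate 2, 9 in both, 7 in all 3, 4 in WT alone and 2 in both and not in WT. No enriched WT cluster had fewer than 16 reads, so this minimum could remove none in WT, and over 1 input read it asks for a log2 of 3.76 in WT, 4.80 in replicate 1 and 5.25 in replicate 2. All of these settings but the log2 of at least 2 keep fewer clusters by construction. Joining enriched clusters at most 5 nt apart, chosen after seeing the data, left 116 of 182 in replicate 1. Leaving out 1 *Mov10* Deletion library gave 31 to 49 genes enriched in *Mov10* Deletion, 15 to 17 also in WT, 2 to 4 in WT and not in *Mov10* Deletion, and 16 to 32 in *Mov10* Deletion and not in WT, the higher count of the last without replicate 2. At a score of at least 5, 24 genes had a target cluster in WT and 21 in replicate 2, assignments numbered 71, 66 and 30, and the miR-124-3p share was 49.3% in WT and 51.5% in replicate 1, the cause of which was not tested. With 1 miRNA per cluster, WT kept 92 assignments. No paired analysis was possible because no result here comes from a test and the inputs that share replicate numbers with the IP libraries were not analysed. Reads per cluster limit the calls, as over 1 input read none was enriched below a log2 of 3.76 in WT, 3.97 in replicate 1 or 4.25 in replicate 2.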
